A study of Mus musculus with 3 samples.

Results

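The transcription factors that hold islet cells in their endocrine state are described here by the level of their RNA in single islet cells. The set holds 10 genes that were chosen by name: *Pdx1*, *Mafa*, *Nkx6-1*, *Nkx2-2*, *Neurod1*, *Isl1*, *Pax6*, *Rfx6*, *Insm1* and *Foxa2*. All 10 were listed in each of the 3 deposited tables, among 14464 genes listed in all 3 and 17226 listed in any. Single-cell RNA-seq was made from islets of C57/Bl6 mice, with 1 library per condition. The WT library came from 300 islets of 1 mouse of wild-type genotype. Each TAF4 KO library came from 300 islets pooled from 2 mice, taken 1 week or 5 weeks after tamoxifen. The mutant animals were *Ins1*::Cre-ERT2::*Taf4* lox/lox adults given tamoxifen on consecutive days, so that Taf4, a subunit of the general transcription factor TFIID, was inactivated in cells in which the *Ins1* promoter drives the recombinase. The control animals of the study were *Taf4* +/+ mice that carried the same Cre transgene and received tamoxifen too, while the labels give the WT library only the genotype wild type. The comparison addresses which of the islet transcription factors were kept, gained or lost in beta cells of the mutant mice, and whether alpha and delta cells of the same islets differed as well.

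These factors act in layers. Foxa2 is a forkhead pioneer factor of endoderm, and Pdx1 is a homeodomain factor needed both to form the pancreas and to keep mature beta cells, where it binds the insulin genes. Neurod1, a basic helix-loop-helix factor that binds E-boxes, and the zinc finger factor Insm1 belong to the general endocrine programme. Isl1, Pax6, Rfx6 and Nkx2-2 are used by several islet cell types. Mafa and Nkx6-1 mark the mature beta cell: Mafa is a basic leucine zipper activator of insulin transcription that is known to be sensitive to stress, and Nkx6-1 is a homeodomain factor that keeps beta cells from taking an alpha fate. Loss of several of these factors is known from beta cells that lose their identity.

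TFIID is recruited at core promoters, so the promoters of the set were searched for short motifs. Promoter sequences of 8 of the 10 genes, with 11 start sites, were matched in a RefSeq table of build GRCm38.p6. Motifs were read within the 250 bases upstream of a start, on both strands. The TATA box letters TATAAA were present for 1 of the 8 genes, *Foxa2*, at 1 of the 11 start sites. They were present in 12.4% of all 32851 promoters. The E-box letters CANNTG, which basic helix-loop-helix factors such as Neurod1 bind, were present for 6 of the 8 genes. By start site they were present at 6 of the 11, against 66.2% of all promoters, so the set was not above the background. The homeodomain core TAATTA and the forkhead letters TGTTTAC were found in none of the 8 and in 4.84% and 3.17% of all promoters. Stretches of 100 bases upstream of the start are shown for the gene that was highest over WT in 5-week beta cells, *Pdx1*. A stretch is also shown for *Isl1*, the gene that was 2-fold lower in CPM in 1-week alpha cells. *Nkx2-2* is shown as a factor that stayed within 2-fold of WT in each class and at each time. The second start of *Pax6* is the only stretch of those read that holds one of the motifs, an E-box in capitals. The stretches are given 5′ to 3′ on the strand of the gene. The *Pdx1* stretch ends 139 bases before the RefSeq start because the GENCODE annotation starts the gene earlier.
Pdx1, chr5:147269859-147269958, plus strand: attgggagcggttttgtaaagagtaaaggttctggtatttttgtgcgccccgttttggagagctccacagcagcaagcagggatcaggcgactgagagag
Isl1, chr13:116309689-116309788, minus strand: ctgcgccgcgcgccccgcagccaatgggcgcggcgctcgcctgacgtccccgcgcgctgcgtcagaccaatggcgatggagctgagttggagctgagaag
Nkx2-2, chr2:147186403-147186502, minus strand: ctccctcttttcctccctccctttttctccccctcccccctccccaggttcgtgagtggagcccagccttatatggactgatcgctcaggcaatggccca
Pax6, chr2:105682363-105682462, plus strand: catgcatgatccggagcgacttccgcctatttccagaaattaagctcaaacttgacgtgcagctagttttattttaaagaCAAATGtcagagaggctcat
On the same build the genes lie at 5:147270097-147275848 (*Pdx1*), 15:75745501-75748321 (*Mafa*), 5:101659184-101664711 (*Nkx6-1*), 2:147176485-147195434 (*Nkx2-2*), 2:79452637-79456636 (*Neurod1*), 13:116298270-116309688 (*Isl1*), 2:105668896-105698410 (*Pax6*), 10:51677760-51730429 (*Rfx6*), 2:146221997-146225020 (*Insm1*) and 2:148042877-148046969 (*Foxa2*). Annotated genes overlapped 3 of them, *Plut* at *Pdx1*, *Nkx2-2os* and *6430503K07Rik* at *Nkx2-2*, and *Pax6os1* and *Elp4* at *Pax6*. Whether the counting used strand was not given in the sources used here, and the part of these partners in the counts of the factors was not tested.

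Cells were placed in classes by the share of their UMIs that came from 1 hormone. A UMI (unique molecular identifier) marks 1 captured RNA molecule. Beta cells had 20% or more *Ins2* and under 3% *Gcg*, alpha cells 15% or more *Gcg* and under 10% *Ins2*, and delta cells 5% or more *Sst*. At 1 week the thresholds were 5%, 8% and 1.5%, in cells of 5000 or more UMIs. This gave 8271 beta, 2772 alpha and 621 delta cells in WT, 562, 172 and 38 at 1 week, and 5685, 3011 and 1443 at 5 weeks. The libraries held 12000, 2295 and 11229 barcodes and 19472212, 23131247 and 39408284 UMIs. The median beta cell held 1656 UMIs in the WT library, 24754.5 in the 1-week and 3868 in the 5-week library. The 5000-UMI minimum, used at 1 week alone, left out 1415 barcodes of that library. Between 2 and 33 barcodes were shared by any pair of libraries. All 10 beta markers and all 10 alpha markers on the lists had UMIs in the class of that name in every library, as did all 8 delta markers. In WT the *Ins1* and *Ins2* level in alpha cells was 6.47% and 6.14% of that in beta cells, read as a rough measure of the free RNA that reaches droplets.

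The WT library went against its description. The mice were stated to be male, but the WT library held 17357 UMIs of *Xist*, the RNA of the inactive X chromosome of females, and *Ddx3y*, *Eif2s3y*, *Kdm5d* and *Uty* of the Y chromosome were not listed for it. The mutant libraries held 17 and 11 UMIs of *Xist* and 1488 and 1349 of *Ddx3y*. The labels give the WT sample no time. Genotype, time, sex, animal and library therefore cannot be told apart in any comparison with WT, and all comparisons over WT share that library. *Taf4* itself was at 4.68 CPM (UMIs of the gene per 1000000 UMIs of the class) in WT beta cells, with a 95% interval of 3.68 to 5.86. The beta level was 7.53 CPM (6.21 to 9.06) in the 1-week and 3.54 CPM (2.88 to 4.31) in the 5-week library. The 3′ tag was counted, and its position relative to the deleted part was not given in the sources used here, so the *Taf4* level does not check the genotype.

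Levels below are CPM of the UMIs summed over a class of 1 library. Intervals are exact 95% intervals and cover counting error only, since no condition had a second library, and no test between conditions was made. A gene is counted as higher or lower where the ratio of CPM was 2-fold or more, among genes with at least 20 UMIs in the 2 groups together.

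In WT islets the set divided into factors of beta cells and factors shared by islet cells. *Mafa* was at 129 CPM in beta cells, 15.3 in alpha cells and 31.7 in delta cells. *Nkx6-1* was at 121 CPM in beta, 19.1 in alpha and 22.7 in delta cells. For both, the beta level was above the alpha and delta levels with no overlap of intervals. Alpha and delta cells did not differ beyond counting error for *Nkx6-1*, nor, once hormone UMIs were left out of the total, for *Mafa*. *Pdx1* was at 36.0 CPM in beta cells, 8.91 in alpha cells and 38.5 in delta cells, so that alpha cells were 4.05-fold below beta cells (log2 2.02, 1.39 to 2.72). Beta over delta cells, the *Pdx1* log2 ratio was -0.10 (-0.79 to 0.69) on this scale and 0.97 (0.28 to 1.76) with hormone UMIs left out. Pdx1 is known as a factor of both beta and delta cells. Beta over alpha cells, 4 of the 10 genes were 2-fold higher (*Pdx1*, *Mafa*, *Nkx6-1* and *Insm1*), against 5.22% of all genes tested, and 1, *Isl1*, was 2-fold lower, against 26.4%. Beta over delta cells, 2 were 2-fold higher (*Mafa* and *Nkx6-1*), against 2.16% of all genes, and 3 were 2-fold lower (*Isl1*, *Pax6* and *Rfx6*), against 53.3%.

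These counts depend on the hormone UMIs, which fill 68.0% of the beta, 41.5% of the alpha and 33.0% of the delta total. With hormones left out, the same 4 genes were 2-fold higher in beta than in alpha cells, where 17.3% of all genes were, and none was lower, where 5.51% were. Beta over delta cells, *Mafa*, *Nkx6-1*, *Nkx2-2* and *Neurod1* were then 2-fold higher and *Isl1* alone was 2-fold lower, each against 12.1% of all genes. *Mafa* and *Nkx6-1* were highest in beta cells and *Isl1* was highest in delta cells on both scales.

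The shared factors had an order of their own in CPM. *Isl1*, a LIM-homeodomain factor, was at 78.8 CPM in WT beta cells, 175 in alpha cells and 399 in delta cells, and the intervals of the 3 classes did not overlap. With hormones left out the order was the same, at 246, 299 and 595 CPM. The same order was kept at 5 weeks, at 78.0, 218 and 414 CPM. *Pax6*, a paired-box factor that drives several hormone genes, was at 95.3 CPM in beta, 104 in alpha and 220 in delta cells of WT, and with hormones left out the log2 beta over delta ratio was -0.14 (-0.44 to 0.17). *Rfx6*, a winged-helix factor needed for islet development, was at 16.5, 27.6 and 40.8 CPM, or at 51.4, 47.1 and 60.9 CPM with hormones left out, where no pair of classes differed beyond its interval. *Insm1* was at 102 CPM in beta, 46.2 in alpha and 147 in delta cells, and it was lowest in alpha cells on both scales. *Neurod1* was at 79.4, 75.9 and 77.1 CPM, and with hormones left out at 248, 130 and 115 CPM, so that its level was even between classes only as a share of all UMIs. *Nkx2-2* at 42.3, 56.0 and 38.5 CPM and *Foxa2* at 21.7, 30.1 and 36.3 CPM had beta over alpha log2 ratios of -0.41 (-0.68 to -0.13) and -0.47 (-0.85 to -0.08), which turned to 0.47 and 0.40 with hormones left out.

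**Figure D1:**
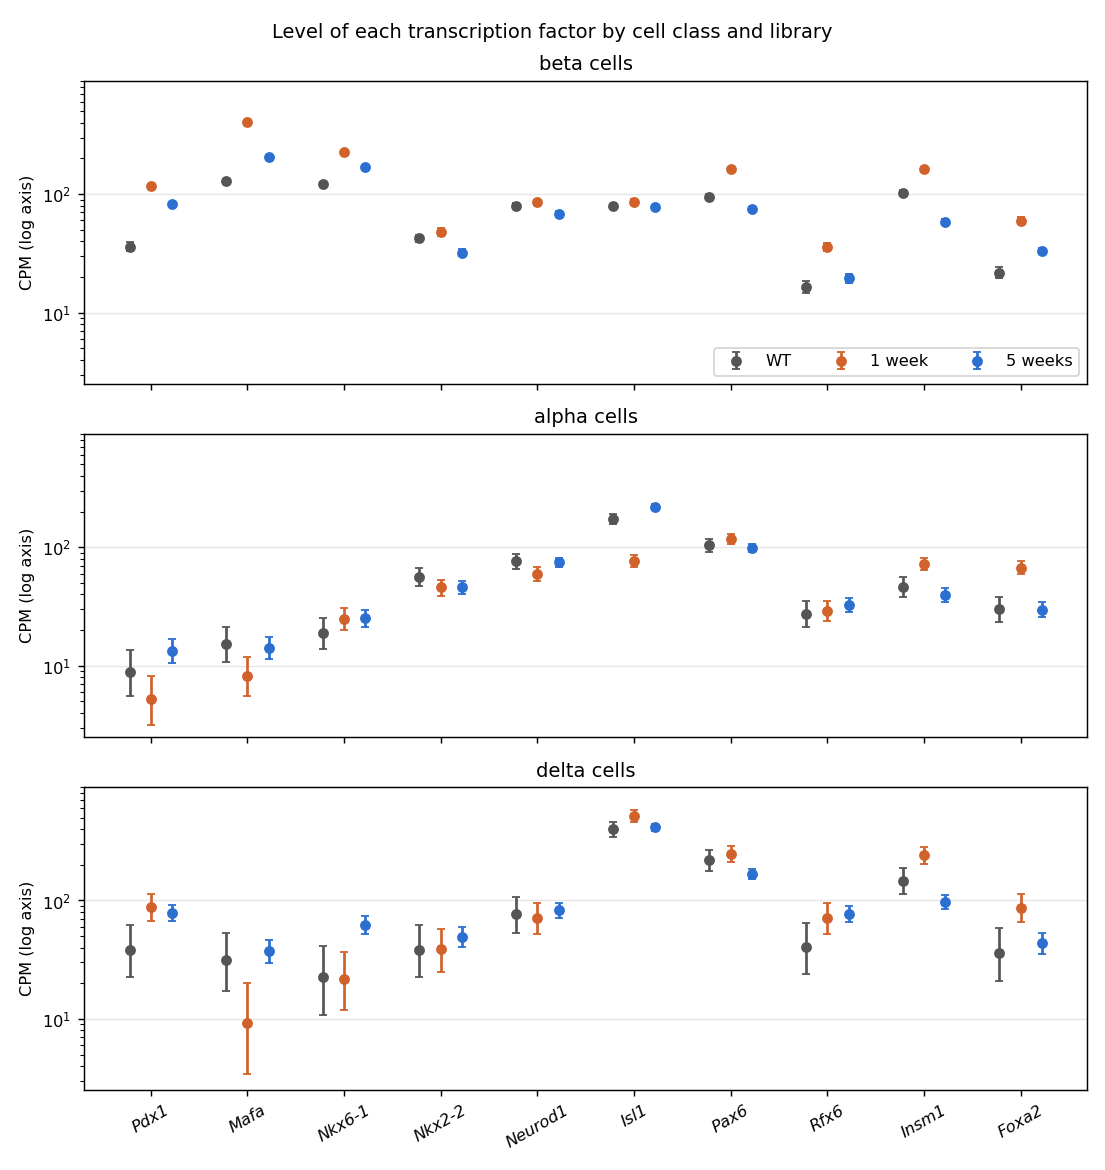
CPM of each gene (log axis) in beta, alpha and delta cells, in WT (grey), at 1 week (orange) and at 5 weeks (blue). Points are 1 library each and bars are exact 95% counting intervals. *Mafa* and *Nkx6-1* stand highest in beta cells of every library, and *Isl1* stands highest in delta cells, at 399 to 518 CPM.

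Free RNA was read from *Ins1* and *Ins2*, which alpha cells do not make. It is a rough measure, since the alpha rule itself held *Ins2* under 10%. In the mutant libraries, insulin RNA of *Gcg* cells that arose from beta cells, which the authors propose, would count in it too. The median alpha cell held 763 UMIs in the WT, 21635.5 in the 1-week and 1853 in the 5-week library. The alpha level of *Mafa*, as a share of the beta level, was 11.9% (8.29 to 16.5) in the WT library. It was 2.03% (1.37 to 2.89) in the 1-week and 6.87% (5.48 to 8.51) in the 5-week library, where *Ins1* was at 1.09% and 4.99%. *Mafa* in alpha cells thus lay lowest where the insulin background was lowest, and its share lay above that of *Ins1* in each library. Reference cells of other types held *Mafa* too, on few UMIs. It was at 12.1 CPM (1.47 to 43.8) in WT acinar, 43.7 (11.9 to 112) in 1-week macrophage and 30.2 (13.1 to 59.6) in 5-week endothelial cells. The alpha levels were 15.3, 8.23 and 14.2 CPM, so *Mafa* in alpha cells is not shown to exceed background. *Nkx6-1* was at 15.7%, 11.0% and 14.9% of the beta level. In the WT acinar reference cells, however, *Nkx6-1* was at 42.4 CPM (17.0 to 87.3) on 7 UMIs, above its alpha level of 19.1, so the alpha level in WT is not shown to exceed background. *Pdx1* was at 24.7%, 4.45% and 16.1%. After each cell was thinned to 500 UMIs, 5.67% of WT beta cells had a *Mafa* UMI, against 0.938% of alpha cells and 1 of 64 acinar reference cells (1.56%, 0.0396 to 8.40). Without thinning those shares were 21.4%, 1.30% and 3.12%, at median depths of 1656, 763 and 1906 UMIs. The acinar share is read as background.

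**Figure D2:**
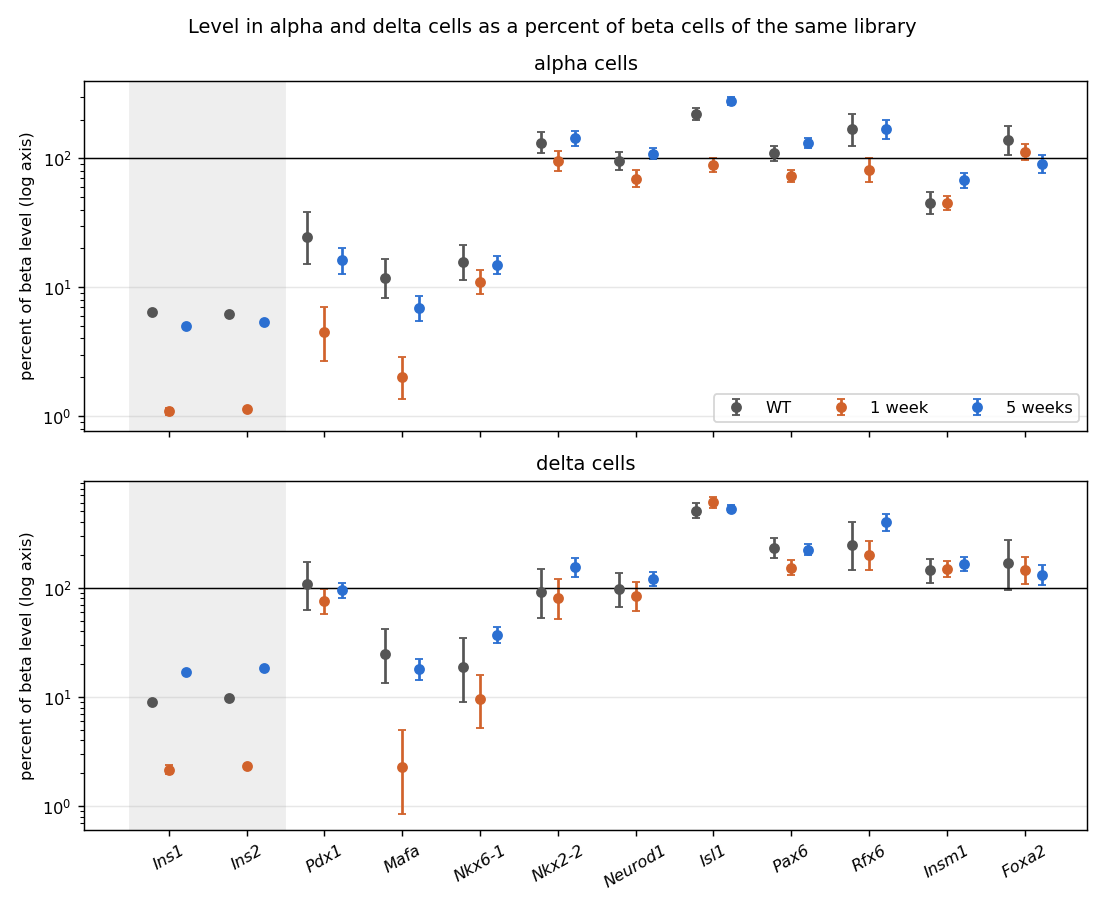
Level in alpha and delta cells as a percent of the level in beta cells of the same library (log axis), with *Ins1* and *Ins2* on the shaded left as a measure of free RNA. Bars are exact 95% counting intervals. *Mafa* in alpha cells is lowest at 1 week, as are the insulin genes, while *Nkx6-1* lies at 11.0% at 1 week, where *Ins1* is at 1.09%.

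At 5 weeks, RNA of all 10 factors was present in beta cells of the mutant library. *Pdx1* was higher than in WT, at 83.1 against 36.0 CPM, a 2.31-fold ratio (log2 1.21, 1.07 to 1.34). *Pdx1* was the 1 gene of the 10 that was 2-fold higher, where 9.40% of all 11874 genes tested were, and it stood at percentile 94.0 among them. None of the 10 was 2-fold lower, where 5.97% of all genes were. The beta factors *Mafa* and *Nkx6-1* were also above WT, *Mafa* at 207 against 129 CPM (log2 0.69, 0.62 to 0.76) and *Nkx6-1* at 168 against 121 CPM (log2 0.47, 0.40 to 0.55). *Foxa2* was at 33.0 against 21.7 CPM (log2 0.61, 0.43 to 0.79) and *Rfx6* at 19.4 against 16.5 CPM (log2 0.24, 0.03 to 0.46).

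Other factors were below WT. *Insm1* was at 58.6 CPM against 102 in WT (log2 -0.81, -0.91 to -0.71), short of the 2-fold rule and at percentile 7.97 of all genes. *Nkx2-2* was at 32.0 against 42.3 CPM (log2 -0.40), *Pax6* at 75.1 against 95.3 CPM (log2 -0.34) and *Neurod1* at 68.6 against 79.4 CPM (log2 -0.21), each with an interval below 0. *Isl1* was the same within counting error, at 78.0 against 78.8 CPM (log2 -0.01, -0.12 to 0.09). The median log2 ratio of the 10 was 0.11 and that of all genes was 0.18, so the middle of the set lay close to that of all genes. Relative to the median gene, *Pdx1* was still 2.04-fold higher, and *Insm1* was at log2 -0.98 (-1.08 to -0.88).

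The 5-week beta cells also held more somatostatin RNA, 0.297% of UMIs as *Sst* against 0.0261% in WT, and 128 of the 5685 also met the delta rule. With cells that met 2 rules left out, the *Isl1* log2 ratio was -0.06 and the *Pdx1* ratio 1.21. Those cells were few, so leaving them out could move a summed level only a little. The part of delta RNA in the remaining beta cells was not tested. The authors removed cells with hormones of 2 classes and called doublets in the WT library alone.

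At 1 week the scale itself moved. The class rule admitted beta cells at a lower *Ins2* share at 1 week than in WT, so a lower hormone share can follow from the rule itself. Hormones filled 42.8% of the UMIs of beta cells, against 68.0% in WT, and 55.0% of all 11615 genes tested were 2-fold higher, with a median log2 ratio of 1.11. In the set 4 of 10 were 2-fold higher on that scale and none was 2-fold lower, where 3.71% of all genes were. The 4 were *Pdx1* at 117 against 36.0 CPM (log2 1.70), *Mafa* at 406 against 129 CPM (log2 1.66), *Foxa2* at 59.8 against 21.7 CPM (log2 1.46) and *Rfx6* at 35.7 against 16.5 CPM (log2 1.12). None of the 4 was 2-fold higher once hormone UMIs were left out of the total. That step lowered every ratio by 0.84 on the log2 scale. With the WT thresholds also used at 1 week, 2 of the 10 beta ratios over WT took the other sign. Under those thresholds 3 of the 10 stayed inside their main intervals.

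Relative to the median gene, the order at 1 week was close to that at 5 weeks at its upper end and not at its lower end. *Pdx1* was 1.51-fold (log2 0.59, 0.46 to 0.73) and *Mafa* 1.47-fold (log2 0.55, 0.48 to 0.63) above the median gene, and *Foxa2* was at log2 0.36. *Rfx6* lay at the median gene (log2 0.01, -0.20 to 0.23). *Nkx6-1* at 227 against 121 CPM, *Pax6* at 162 against 95.3 CPM and *Insm1* at 162 against 102 CPM lay below it by 0.20, 0.34 and 0.45 on the log2 scale, although each was above WT in CPM. *Neurod1* was at 85.0 against 79.4 CPM, *Isl1* at 85.9 against 78.8 CPM and *Nkx2-2* at 48.0 against 42.3 CPM. These 3 were close to WT in CPM and so lay at log2 -1.01, -0.98 and -0.92 relative to the median gene, at percentiles 13.6, 14.0 and 15.3. With hormones left out they were at log2 -0.74, -0.71 and -0.65. The 2 times share the WT library, so agreement between their values is not independent.

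**Figure D3:**
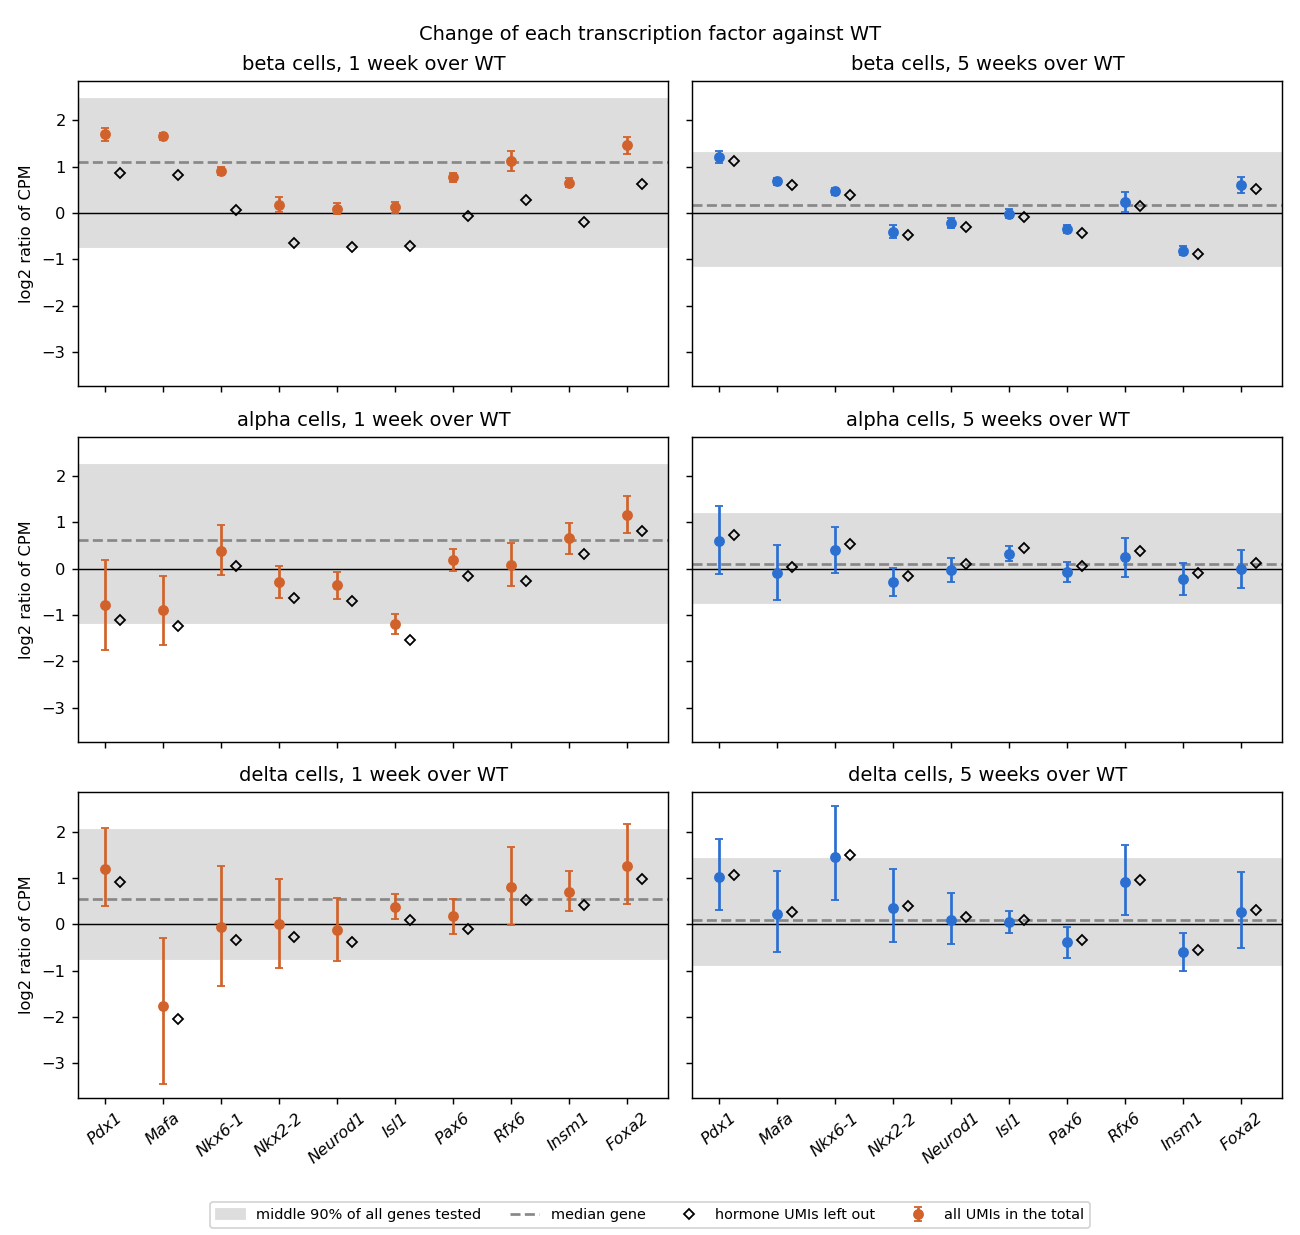
Log2 ratio of CPM of each gene over WT, for the 1-week library (left, orange) and the 5-week library (right, blue), in beta, alpha and delta cells. Bars are exact 95% counting intervals, open diamonds leave hormone UMIs out of the total, the dashed line is the median gene and the grey band the middle 90% of all genes tested. In beta cells at 1 week the median gene lies at 1.11 and 6 of the 10 genes lie below it.

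Beta cells of the 1-week library were not alike. They were cut into tertiles of 188, 187 and 187 cells by the share of their UMIs that came from *Ddit3*, which encodes the stress factor CHOP. A tertile is a range of cells and not a type, and 16 and 42 cells lay within 10% of the first and second cut. *Mafa* was at 743 CPM in the lowest tertile, 313 in the middle and 86.2 in the highest (log2 highest over lowest -3.11, -3.26 to -2.95). *Pdx1* was at 179, 117 and 37.4 CPM (log2 -2.26, -2.51 to -2.01). *Pax6* was at 211, 161 and 102 CPM (log2 -1.05). Across all 3 tertiles these 3 genes ran downward with no overlap of intervals.

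The other factors differed less between the tertiles. *Nkx6-1*, the other factor of mature beta cells, was at 241, 235 and 202 CPM (log2 -0.25). *Neurod1*, *Nkx2-2* and *Isl1* had log2 ratios of -0.68, -0.55 and -0.48, and *Rfx6*, *Insm1* and *Foxa2* of 0.53, 0.52 and 0.48. *Insm1* was highest in the middle tertile, at 211 CPM against 114 and 163. The hormone share was 58.9%, 39.8% and 25.7% of UMIs in the 3 tertiles, and with hormones left out all 10 genes were lower in the highest tertile. On that scale the log2 ratio was -3.96 for *Mafa*, -3.11 for *Pdx1*, -1.90 for *Pax6*, -1.53 for *Neurod1*, -1.40 for *Nkx2-2*, -1.34 for *Isl1* and -1.11 for *Nkx6-1*, and it was -0.33 to -0.37 for *Rfx6*, *Insm1* and *Foxa2*. Mitochondrial UMIs were at 4.68%, 2.74% and 1.89%, and the median cell had 24553, 26769 and 22823 UMIs. The part of hormone content in these differences was not tested.

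A second cut, by the share of *Ins1* among *Ins1* and *Ins2* UMIs, gave the reverse order for the same leading genes. *Mafa* was at 173, 345 and 604 CPM from the lowest to the highest tertile (log2 1.80, 1.68 to 1.92), and *Pdx1* at 81.4, 118 and 139 CPM (log2 0.78, 0.59 to 0.96). *Insm1* at 210, 173 and 121 CPM and *Foxa2* at 78.5, 61.4 and 46.5 CPM ran the other way in CPM. With hormones left out all 10 genes were higher in the highest *Ins1* tertile, from log2 0.09 for *Insm1* and 0.12 for *Foxa2* to 2.68 for *Mafa*, and *Nkx6-1* was at 0.83. The cuts share cells and are not independent, since *Ddit3* was at 3688 CPM in the lowest *Ins1* tertile and 642 CPM in the highest. Among the 10 genes *Mafa* also had the largest variance over mean from cell to cell. With each cell thinned to 5000 UMIs, this ratio was 5.12 for *Mafa* and 1.04 to 1.61 for the other 9, where 1 is what counting alone gives. The mean was 1.88 UMIs for *Mafa* and 0.205 to 1.17 for the other 9. Where cells differ in level the ratio also rises with the mean, so its size is not compared between genes.

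**Figure D4:**
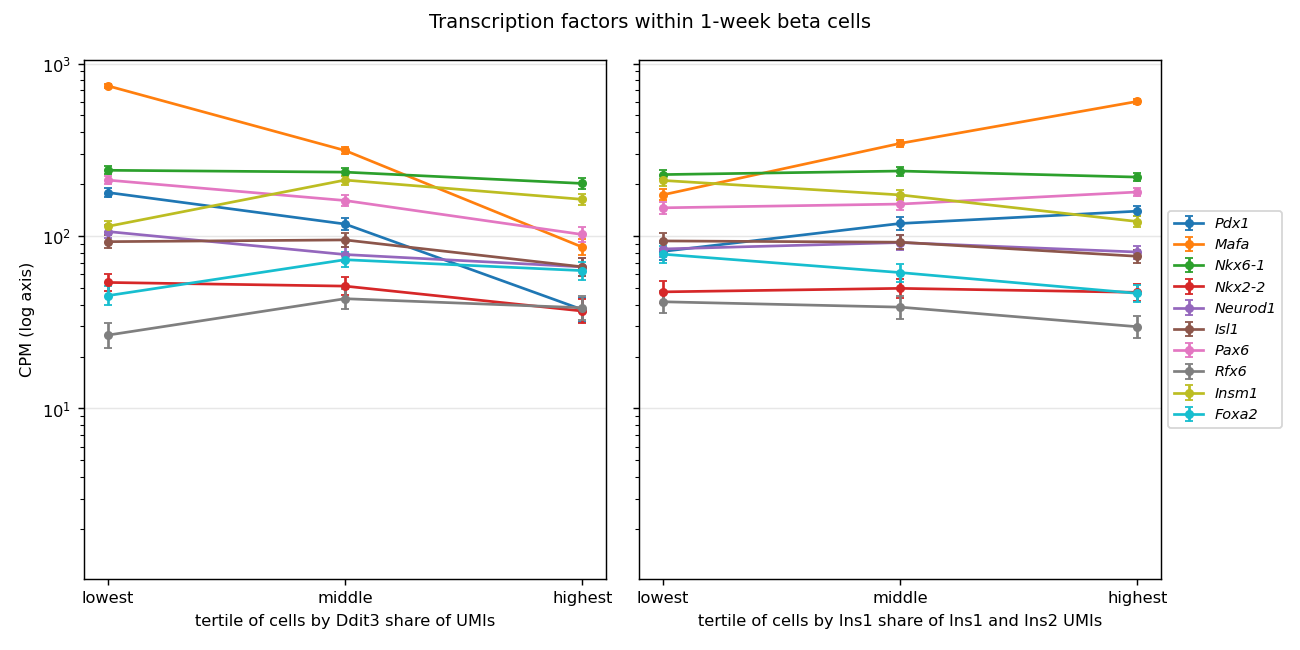
CPM (log axis) of each gene in tertiles of 1-week beta cells, cut by *Ddit3* share of UMIs (left) and by *Ins1* share of *Ins1* and *Ins2* UMIs (right). Bars are exact 95% counting intervals. *Mafa* runs from 743 down to 86.2 CPM on the left and from 173 up to 604 CPM on the right, while *Nkx6-1* lies between 202 and 241 CPM, an evenness that does not hold with hormones left out (log2 -1.11 on the left and 0.83 on the right).

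The same question was put to all 3 libraries with a score that counts more UMIs per cell, the summed share of *Ddit3*, *Hspa5* and *Herpud1*, in beta cells of 2000 or more UMIs. *Hspa5* encodes a chaperone of the endoplasmic reticulum and *Herpud1* a part of its degradation machinery. This cut was chosen after the values were seen. The median score of the highest tertile was 0.0947% of UMIs in WT, 0.735% at 1 week and 0.381% at 5 weeks, so the ranges differ, and the median of the lowest tertile in WT was 0. Highest over lowest tertile, the *Mafa* log2 ratio was -3.29 (-3.46 to -3.13) at 1 week, and it was 0.08 (-0.13 to 0.30) in WT and 0.00 (-0.09 to 0.10) at 5 weeks. For *Pdx1* it was -2.37 (-2.63 to -2.11) at 1 week, 0.13 (-0.28 to 0.54) in WT and 0.15 (-0.01 to 0.31) at 5 weeks. In CPM the downward run of *Mafa* and *Pdx1* was seen in the 1-week library and not in the others, whose median beta cells were shallower. The class rule also admitted beta cells from 5% *Ins2* at 1 week and from 20% in the others. From the lowest to the highest tertile, hormones filled 59.1% to 24.0% of UMIs at 1 week. They filled 69.7% to 67.5% in WT and 69.2% to 63.3% at 5 weeks. The part of the unequal rule in this difference was not tested. With hormones left out the *Mafa* ratio was -4.19 at 1 week, -0.02 in WT and -0.25 at 5 weeks. That of *Pdx1* was -3.26, 0.03 and -0.10. On that scale *Mafa* was thus somewhat lower in the highest tertile at 5 weeks too, by far less than at 1 week.

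**Figure D5:**
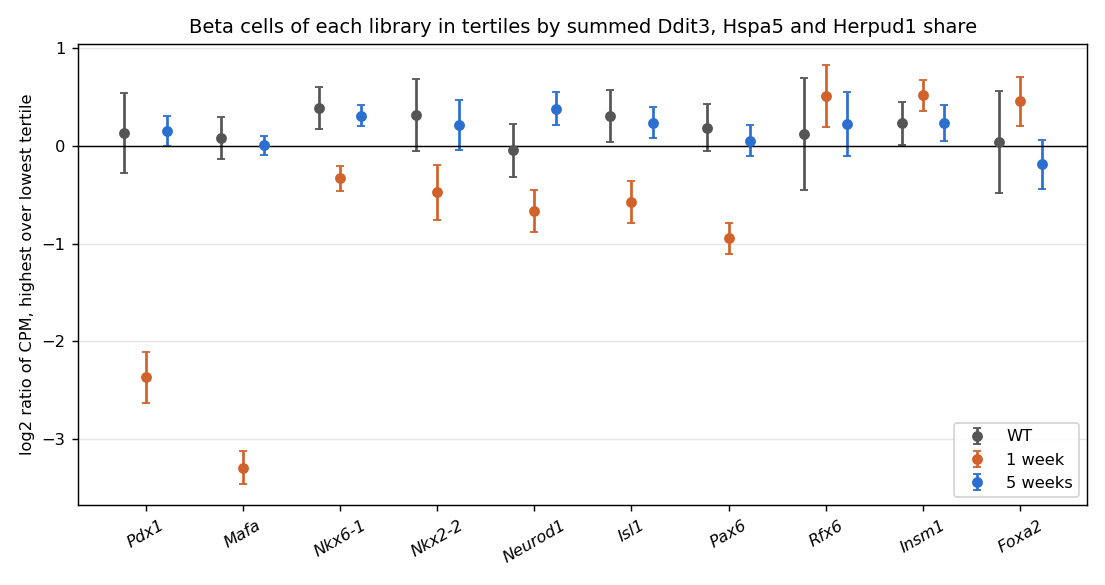
Log2 ratio of CPM in the highest over the lowest tertile of beta cells by summed *Ddit3*, *Hspa5* and *Herpud1* share, in WT (grey), at 1 week (orange) and at 5 weeks (blue). Bars are exact 95% counting intervals. At 1 week *Mafa* lies at -3.29 and *Pdx1* at -2.37, and in the other libraries all 10 genes lie between -0.19 and 0.39.

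Genes known as targets of these factors in beta cells were in part lower in the same cells. Of 16 target genes listed, all were tested in beta cells at 5 weeks. There 7 were 2-fold lower and none higher, where 5.97% and 9.40% of all genes were. The median log2 ratio of the 16 was -0.75 against 0.18 for all genes. The authors report *Slc2a2*, *Trpm5*, *Ins1* and *Ucn3*, all on the list, as lower in mutant islets or beta cells. This list and those below were chosen with earlier results of these data known. Their shares are therefore no independent test against all genes. *Slc2a2*, the glucose transporter that Pdx1 and Mafa are known to activate, was at 198 CPM in WT, 26.9 at 1 week and 2.29 at 5 weeks (log2 5 weeks over WT -6.43). *Ucn3*, a maturity marker of beta cells, was at 134, 41.9 and 7.40 CPM (log2 -4.18). The cation channel gene *Trpm5* was at 148, 6.93 and 1.43 CPM (log2 -6.69). The others were *Ins1*, *Slc30a8*, *G6pc2* and *Nnat*, at log2 -2.77, -2.36, -1.57 and -2.02. *Pdx1*, *Mafa* and *Nkx6-1* were above WT in the same cells. At 1 week 7 of the 16 were 2-fold lower as well, with *Iapp* in place of *Slc30a8*, and 1, the potassium channel gene *Kcnj11*, was 2-fold higher, where 3.71% and 55.0% of all genes were.

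Other transcription factors of the islet were in part lower. Of 30 listed, 22 were tested in beta cells at 5 weeks, and 4 were 2-fold lower: *Myt1* and *St18*, zinc finger factors related in sequence, at 2.14 against 10.9 and 9.54 against 26.9 CPM, *Mlxipl*, which encodes the glucose-responsive factor ChREBP, at 18.6 against 47.1 CPM, and *Sox4* at 9.51 against 26.9 CPM. The 2 that were 2-fold higher were *Hhex*, a factor of delta cells, at 7.33 against 1.18 CPM, and *Neurog3*, the inducer of endocrine cells in the embryo, at 1.82 against 0.249 CPM on 51 and 4 UMIs. Delta cells held *Hhex* at 218 CPM and *Neurog3* at 34.0 CPM in WT, and the part of delta RNA in both beta ratios was not tested. Beta cells held 0.297% *Sst* in that library and 0.0261% in WT. Of 14 cofactors and partners of the factors, none was 2-fold changed in beta cells at 5 weeks. At 1 week 2 of 20 other factors tested were 2-fold lower (*Irx1* and *Etv1*) and 5 higher, where 55.0% of all genes were higher, among them *Mlxipl* at 119 against 47.1 CPM, and their median log2 ratio was 0.33. Of the cofactors 12 of 14 were 2-fold higher at 1 week, with a median log2 ratio of 1.34 against 1.11 for all genes and the same background of 55.0%. Among the 4 TFIID genes, *Taf12* was 2-fold higher at both times (11.7, 38.1 and 26.4 CPM), as was *Taf4b*, the paralogue of *Taf4*, at 0.873 CPM in WT, 3.33 at 1 week and 1.79 at 5 weeks, on 14 to 50 UMIs. *Tbp* was 2-fold higher at 1 week alone, at 7.47 against 3.55 CPM.

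Alpha cells do not use the *Ins1* promoter, but the authors propose that some *Gcg* cells of the mutant islets arose from beta cells. A class set by *Gcg* share cannot tell these from other alpha cells. At 5 weeks none of the 10 factors was 2-fold changed in the alpha class. The background was 2.11% of 10295 genes lower and 7.55% higher. *Isl1* was the only one of the 10 whose interval left out 0, at 218 against 175 CPM (log2 0.32, 0.16 to 0.48). The alpha level of the pan-islet factors *Pax6*, *Neurod1* and *Foxa2* was at 99.0 against 104, 74.7 against 75.9 and 29.8 against 30.1 CPM. Among other factors *Etv1* was lower in alpha cells at 5 weeks, at 187 against 397 CPM (log2 -1.08), and *Pou3f4*, an alpha factor, was higher, at 10.1 against 4.67 CPM. *Hhex* was 2-fold higher too, at 13.4 against 0.424 CPM on 80 UMIs and 1, and *Sst* was at 0.492% of UMIs in 5-week alpha cells against 0.0460% in WT.

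In alpha cells of 1 week the *Isl1* level was below those of WT and 5 weeks. It was at 76.5 CPM (67.8 to 86.1), against 175 (158 to 192) in WT and 218 (207 to 230) at 5 weeks, a 2.28-fold lower level than in WT (log2 -1.19, -1.42 to -0.97). *Isl1* was the 1 gene of the 10 that was 2-fold lower in CPM, a share near the 6.17% of all 9866 genes that were. It stood at percentile 4.88. The alpha level at 1 week was 89.1% of the beta level, while it was 222% in WT and 280% at 5 weeks. With hormones left out those shares were 68.9%, 121% and 177%, lowest at 1 week as well. The 1-week alpha cells held 24.2% *Gcg* and 0.416% *Ins2*, and the *Isl1* ratio stayed between -1.06 and -1.82 under the alternatives. *Foxa2* was the 1 gene that was 2-fold higher, at 67.2 against 30.1 CPM, where 33.4% of all genes were and the median gene was at log2 0.63. *Mafa*, *Pdx1* and *Neurod1* were at log2 -0.89, -0.77 and -0.36, the first 2 on 30 and 19 UMIs in the 1-week library. With hormones left out *Mafa* and *Pdx1* were 2-fold lower as well, at log2 -1.23 and -1.11, with *Isl1* at -1.53. Other factors tested in 1-week alpha cells were 2-fold lower for 3 of 20 and higher for 3.

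Delta cells held fewer UMIs, and their intervals were wide. At 5 weeks *Nkx6-1* was at 62.3 against 22.7 CPM, on 139 and 10 UMIs (log2 1.46, 0.54 to 2.55), and *Pdx1* at 78.4 against 38.5 CPM, on 175 and 17 UMIs (log2 1.02, 0.30 to 1.84). These 2 were 2-fold higher, where 10.4% of 8552 genes were, and none was 2-fold lower, where 3.57% were. *Rfx6* was at 77.0 against 40.8 CPM (log2 0.92, 0.21 to 1.71), *Insm1* at 97.2 against 147 CPM (log2 -0.60, -1.01 to -0.18), and *Isl1* at 414 against 399 CPM. *Insm1* thus lay below WT in delta as in beta cells at this time. Among 19 other factors tested, *Foxa3* was 2-fold lower at 14.3 against 54.4 CPM and *Gata6* 2-fold higher at 45.2 against 18.1 CPM. Of 13 cofactors *Tcf12* was 2-fold lower and *Ldb1*, *Rcor1* and *Hdac1* were 2-fold higher, the last 3 on 3 to 7 UMIs in WT.

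Insulin RNA in delta cells differed between the libraries. *Ins2* filled 10.6% of delta UMIs at 5 weeks, 4.30% in WT and 0.856% at 1 week, and *Nkx6-1* was at 62.3, 22.7 and 21.7 CPM in the same libraries. In the 222 delta cells of 5 weeks with 10% or more *Ins2*, *Nkx6-1* was at 111 CPM and *Mafa* at 86.4 CPM. In the other 1221 they were at 45.3 (35.7 to 56.8) and 19.9 CPM, while *Pdx1* was at 79.5 and 78.0 CPM in the 2 groups. Against WT delta cells with under 10% *Ins2*, where *Nkx6-1* was at 17.0 CPM on 7 UMIs, the *Nkx6-1* log2 ratio was 1.41 and that of *Pdx1* 1.00, so both were nearly as large without the insulin-rich cells. With cells that met 2 rules left out, the log2 ratios were 1.08 and 1.12. A further 535 cells of 5 weeks with *Ins2* and *Gcg* held *Mafa* at 162 CPM and *Isl1* at 117 CPM, each between the alpha and beta levels. Their median was 4849 UMIs, and doublets were not called in this library.

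At 1 week the 38 delta cells gave 2 genes that were 2-fold higher, *Pdx1* at 88.4 against 38.5 CPM and *Foxa2* at 86.8 against 36.3 CPM, where 27.4% of 6183 genes were, and 1 that was 2-fold lower, *Mafa* at 9.30 against 31.7 CPM on 6 and 14 UMIs, where 3.20% were. The *Mafa* level was 2.29% (0.84 to 4.99) of the beta level in these cells and *Ins2* was at 2.34%. With the 1 cell that also met the beta rule left out, *Ins2* went from 8561 to 5753 CPM and *Mafa* stayed on 6 UMIs. The *Mafa* level in these delta cells is thus not shown to exceed background, and the part of free RNA in it was not tested. *Isl1* was at 518 against 399 CPM (log2 0.38, 0.11 to 0.65). Delta cells held the highest *Isl1* level of the 3 classes in each library, at 506%, 603% and 531% of the beta level, or 242%, 425% and 276% with hormones left out.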

How the data were processed

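The tables were deposited as raw counts, with a row for each gene, a column for each barcode and UMIs as values. Per the authors' methods, live-sorted cells were captured with 10x 3′ chemistry, demultiplexed with bcl2fastq 2.17.1.14 and counted with Cell Ranger 3.1 on mm10, and Seurat 3.1.4 was used downstream. In WT alone they removed cells with hormones of more than 1 class and doublets, and scaled to 12000 cells. No doublet caller was run here.

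UMIs were summed over hormone-defined classes (Python 3.11.15, scipy 1.17.1, numpy 2.4.6, matplotlib 3.10.9). Cells that met 2 rules counted in both classes. Levels had exact Poisson and ratios exact conditional 95% intervals. A count of 0 was set to a floor of 3 counts. Hormones left out were *Ins1*, *Ins2*, *Gcg*, *Sst*, *Ppy*, *Pyy* and *Iapp*. On simulated counts for 5 weeks over WT in beta cells, intervals of 98.5% of 200 changed genes among 10223 held the true ratio. The counts were drawn from the Poisson model that the intervals assume, so spread between cells or animals was not covered. The 10 genes, the companion lists and the tests were chosen with earlier results of these data known. All 10 are named, and from the lists every gene at least 2-fold different in beta cells at 5 weeks and examples from the other comparisons. The alternatives were 12 planned and 2 added after the data were seen, when hormone totals were also left out of the WT class comparisons. Promoters were read from RefSeq.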

Additional observations from a re-analysis of the deposited data

Results flagged for a closer look

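The 1-week ratio over WT of 2 genes took opposite signs in different cell classes in CPM, with intervals that left out 0. The signs of *Pdx1*, *Nkx6-1*, *Nkx2-2* and *Neurod1* also differed between classes, but with an interval that held 0 in at least 1 class. For *Pdx1* the log2 ratio was 1.70 in beta and -0.77 (-1.75 to 0.19) in alpha cells. The difference was not tested in any of these, since each condition has 1 library. For *Mafa* the log2 ratio was 1.66 in beta cells, -0.89 in alpha cells and -1.77 in delta cells. The beta ratio exceeded the alpha ratio by 2.55 and the delta ratio by 3.43. *Ins1* in alpha cells, as a share of its beta level, was 1.09% at 1 week and 6.47% in WT, and in delta cells 2.16% and 9.01%, and the part of this free RNA in the *Mafa* ratios was not tested. For *Isl1* the log2 ratio was 0.12 in beta cells, -1.19 in alpha cells and 0.38 in delta cells. The beta ratio exceeded the alpha ratio by 1.32, and the alpha minus delta difference was -1.57. The sign split of *Isl1* between beta and alpha cells depends on the scale. With hormones left out, its log2 ratios were -0.71 in beta and -1.53 in alpha cells, and relative to the median gene they were -0.98 in beta, -1.82 in alpha and -0.16 in delta cells.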

How the results depend on the processing

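With 1 library per condition the intervals cover counting error only, and sex, animal and library move with genotype. No paired analysis was possible because no condition has a second library. In beta cells at 5 weeks the counts of 1 gene higher and 0 lower held under every alternative that was run, and the *Pdx1* log2 ratio stayed between 1.03 and 1.25. Other counts depended on the scale. With hormone UMIs left out, at 1 week 0 genes were 2-fold higher in beta, alpha or delta cells and 3 were lower in alpha cells (*Pdx1*, *Mafa* and *Isl1*). In WT, with hormones left out (added after seeing the data), 0 were lower in beta than in alpha cells, 4 were higher in beta than in delta cells and 1 was lower. Relative to the median gene, chosen after seeing the data, 0 were higher in the 3 classes at 1 week, 1 was lower in beta cells (*Neurod1*), 3 were lower in alpha cells, and 1 was higher in delta cells at 5 weeks. With the mean of each cell's CPM, 2 were lower in alpha cells at 1 week. With mitochondrial UMIs left out, 1 was higher in delta cells at 5 weeks. With WT and 5-week cells of 1000 or more UMIs, at 1 week 0 were higher in alpha cells, 0 were lower and 1 higher in delta cells, and 1 was higher in delta cells at 5 weeks. With 5-week cells of 5000 or more UMIs, 1 was lower in alpha cells (*Mafa*) and 1 in delta cells (*Insm1*). Stricter thresholds, WT thresholds at 1 week, a minimum of 100 UMIs, and delta cells under 10% *Ins2* (chosen after seeing the data) each gave 0 lower in delta cells at 1 week, and the minimum of 100 UMIs also gave 0 higher, since fewer genes were tested.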

Other observations

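Barcodes of the 1-week library under 5000 UMIs were in no class. Among them, 405 had 15% or more mitochondrial UMIs. There *Pax6* was at 451 CPM, *Mafa* at 498 CPM, *Isl1* at 207 CPM and *Rfx6* at 110 CPM, against 162, 406, 85.9 and 35.7 CPM in 1-week beta cells. *Insm1* was at 60.3 CPM against 162 CPM. *Ins2* was at 72274 CPM in those barcodes and *Gcg* at 6541 CPM, and in 17 macrophage reference barcodes of the library, which make neither hormone, they were at 16054 and 1038 CPM. The other 1010 shallow barcodes had *Pax6* at 181 CPM and *Isl1* at 86.5 CPM, and *Nkx6-1* at 125 CPM, *Pdx1* at 76.5 CPM and *Insm1* at 106 CPM, against 227, 117 and 162 CPM in 1-week beta cells.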
